A study of Homo sapiens with 9 samples.

Results

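The genes that license replication origins, unwind DNA and copy it at the fork were compared between VCaP cells transfected with either of 2 siRNAs and control cells. The list holds 53 genes, chosen by name for their roles at origins and forks, out of 19918 genes counted, and all 53 were among the 12810 genes expressed highly enough to be tested. The choice was made with earlier results of these data known. VCaP is an established prostate cancer line, and all libraries came from this single line. In the si025 and si033 groups, labelled IGF1R-AS1 knockdown, 100 pmol of an siRNA against exon 1 of the long non-coding RNA *IGF1R-AS1* was given by reverse transfection, and cells were harvested after 72 h. The control group is labelled WT, and its labels repeat the same dose and time. Other assays of the study used a control siRNA, but which siRNA the control cells of these libraries received is not given in the sources used here. Each group held 3 libraries. The labels number these as replicates without saying whether separate cultures were used, so the *p* values measure the spread between these libraries, which may be technical. How far *IGF1R-AS1* itself was depleted in these libraries was not analysed here.

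The libraries held 11649811 to 28492259 counted read pairs, and no replication gene had fewer than 93 counts in any library. Levels are given as CPM, which are counts scaled to a common library total with TMM factors, and a value per kb is CPM divided by the exon length of the gene in kilobases. All 8 markers of prostate luminal cells that were read were detected, *KLK3* being the lowest at 13.4 CPM in control and *KLK2* the highest at 1938 CPM. The summed level of these markers was 4086 to 4223 CPM in control, 6311 to 6662 CPM with si025 and 3389 to 3610 CPM with si033, and the part of this shift in the results below was not tested. *KLK2* held much of that sum, and the means of *KLK3*, *TMPRSS2* and *HOXB13* were higher with si033 (19.4, 315 and 575.5 CPM) than in control (13.4, 309 and 479.6 CPM). The 10 markers of blood, endothelial, stromal and basal cells summed to 7.26 to 7.97 CPM in control, 8.25 to 10.2 CPM with si025 and 6.18 to 6.73 CPM with si033. Of these, *CD3E* and *KRT5* had no count in any library, and *PTPRC*, *PECAM1* and *TP63* reached at most 0.116, 0.221 and 0.155 CPM. Most of the sum came from *COL1A1*, *ACTA2*, *CD68* and *VWF*. Between control and si025 the mean went from 1.73 to 3.40 CPM for *COL1A1* and from 0.84 to 1.46 CPM for *VWF*. It went from 3.17 to 3.035 CPM for *ACTA2* and from 1.42 to 1.16 CPM for *CD68*.

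Replication is prepared in G1, when the origin recognition complex (ORC), CDC6 and CDT1 load the MCM2-7 helicase onto DNA as an inactive double ring. At the start of S phase the kinase CDC7 with its partner DBF4 acts on that ring, CDC45 and the GINS complex join it, and the active helicase opens the fork. Polymerase alpha with primase then starts each strand, polymerases delta and epsilon extend it on the clamp PCNA, and FEN1 and LIG1 join the lagging-strand pieces. Many of these genes are known targets of E2F transcription factors and peak in transcription near the start of S phase, and they recur in gene lists of proliferation.

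Taken as a group, the replication genes were lower with either siRNA, and more so with si025. Their share of all read pairs counted on genes was 0.610% to 0.619% in the control libraries, 0.401% to 0.406% with si025 and 0.521% to 0.523% with si033, with no overlap between groups. A gene is referred to as called when its adjusted *p* value (edgeR quasi-likelihood test, Benjamini-Hochberg over all 12810 genes) was under 0.05. With si025, 50 of the 53 genes were called lower and 0 higher, where 28.8% of all tested genes were called lower and 32.9% higher. None of the 53 genes was higher at an unadjusted *p* under 0.05 either, and with DESeq2 and limma-voom 0 genes were called higher as well. With si033, 42 were called lower and 2 higher, where 27.8% of all genes were called lower and 26.9% higher. The median log2 fold change of the 53 genes was -0.69 with si025 and -0.32 with si033, against 0.02 and 0.00 over all genes. A decrease of at least 2-fold was called for 9 genes with si025, where 1.51% of all genes passed this limit. With si033, 0 of the 53 genes did so, where 2.08% of all genes passed, and the 42 called decreases ran from -0.16 to -0.73. All 3 si025 libraries lay below all 3 control libraries for 51 genes, where this held for 30.7% of all genes. All 3 si033 libraries did so for 43 genes, where it held for 30.2%. Both comparisons use the same control libraries. In RNA from whole cultures, fewer cells in S phase and less RNA per cell in S phase cannot be told apart.

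**Figure D1:**
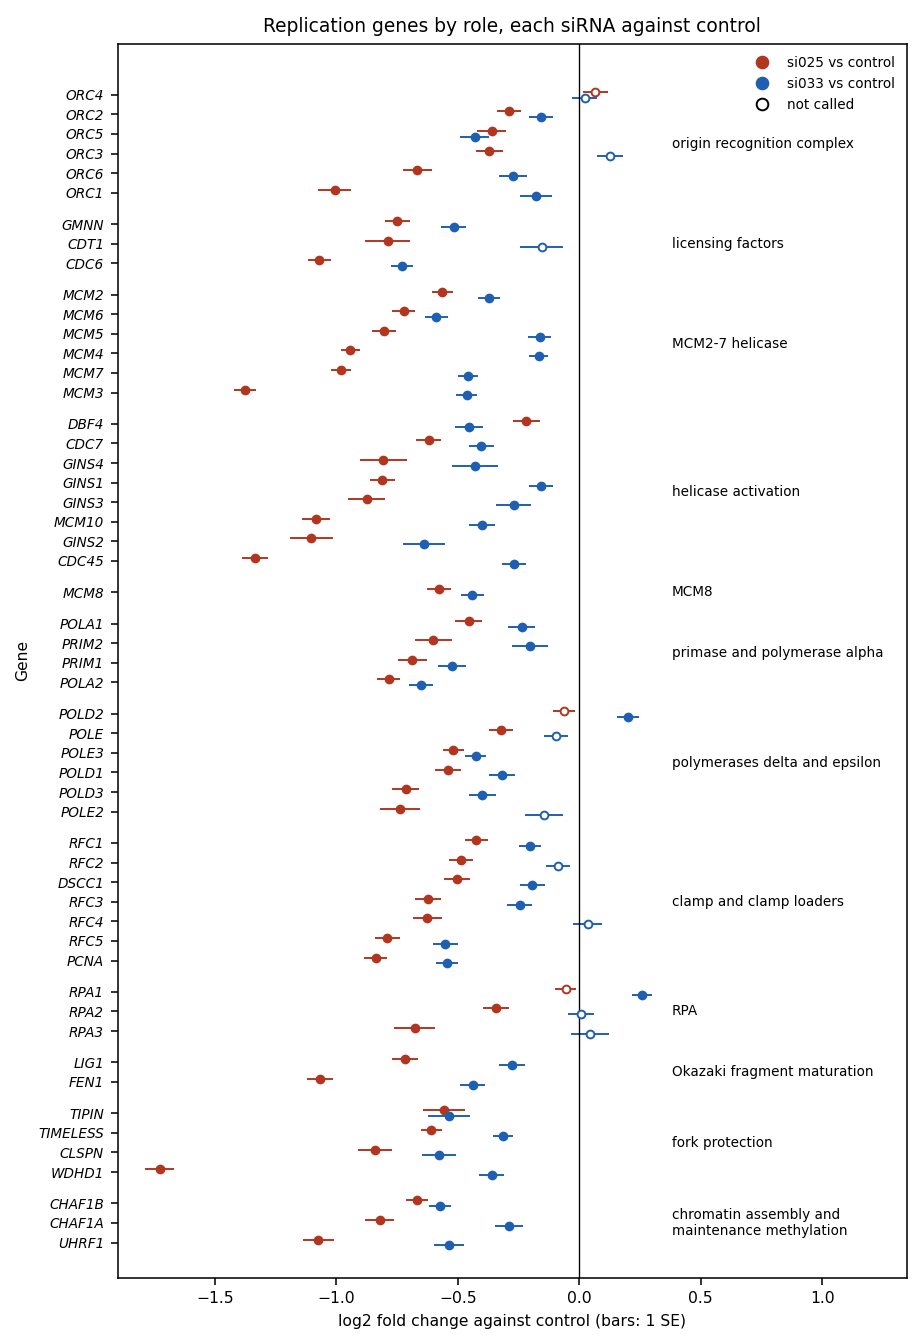
Log2 fold change of each of the 53 replication genes against control (x axis), with si025 in red and si033 in blue, grouped by role; points are fold changes from 3 libraries per group, bars are 1 SE and open points were not called. With si025 all points but ORC4 lie left of 0, from -1.73 for WDHD1 to -0.06 for RPA1, whereas with si033 the points of the RPA genes, POLD2, ORC3, ORC4 and RFC4 lie at or right of 0.

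The promoters of these genes were searched for short words that the choice of genes did not use. RefSeq promoters (GRCh38.p14, 250 bases before to 50 bases after the start site) were matched by symbol for 46 of the 53 genes, all but *MCM4*, *MCM5*, *GINS4*, *POLD3*, *DSCC1*, *RPA2* and *RPA3*. An E2F word, meaning TTTCCCGC, TTTCGCGC, TTTGCCGC or TTTGGCGC on either strand, was present in 20 of these 46 promoters (43.5%). The same words were present in 3.33% of all 27305 promoters of that length and in 5.28% of the 9948 promoters of tested genes. The word CCAAT was present in 56.5% of the 46, on either strand, against 36.6% for tested genes, and the E-box CACGTG, which MYC can bind, in 17.4%, against 9.98%. These counts describe letters and were not tested, and they do not show binding. The following stretches upstream of the start site are shown because they hold the E2F words, in capitals, of genes that the results below turn on. The letters GCGGGAAA and GCGCGAAA are TTTCCCGC and TTTCGCGC read on the opposite strand.
MCM3, chr6:52284889-52284936, minus strand: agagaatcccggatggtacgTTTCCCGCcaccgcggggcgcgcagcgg
MCM6, chr2:135876502-135876615, minus strand: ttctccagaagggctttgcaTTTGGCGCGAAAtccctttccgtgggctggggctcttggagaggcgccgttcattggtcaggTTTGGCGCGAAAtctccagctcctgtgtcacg
CDT1, chr16:88803734-88803781, plus strand: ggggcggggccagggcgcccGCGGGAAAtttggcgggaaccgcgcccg
GINS2, chr16:85688958-85689005, minus strand: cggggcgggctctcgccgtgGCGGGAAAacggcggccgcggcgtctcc
PCNA, chr20:5126654-5126701, minus strand: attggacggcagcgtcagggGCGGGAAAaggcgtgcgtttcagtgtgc
UHRF1, chr19:4909467-4909500, plus strand: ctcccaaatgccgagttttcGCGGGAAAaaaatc
A further E2F word of *MCM3*, which spans the start site, is not shown. In the *MCM6* stretch the words on opposite strands overlap, so that its 4 matches form 2 pairs. The 20 genes with an E2F word had a median log2 fold change of -0.79 with si025 and -0.41 with si033, and the 26 without one had -0.61 and -0.32. With si025, 20 of the 20 and 23 of the 26 were called lower, and with si033, 16 and 21 were. The word was present in 44.4% of the 9 genes lowered at least 2-fold by si025 and in 43.2% of the other 37. A relation between word and change was not tested. *WDHD1* and *CDC45*, which are both among the 3 genes with the largest decreases with si025, held no E2F word in this window.

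The 6 subunits of the MCM2-7 helicase, which forms the ring that unwinds DNA, were each called lower with both siRNAs. Summed over the subunits (mean ± SD, n = 3 libraries), the level was 1674.5 ± 16.7 CPM in control, 892 ± 10.6 CPM under si025 and 1325 ± 15.5 CPM under si033. *MCM3* was measured at 212, 209 and 207 CPM in the control libraries, 80.8, 83.02 and 78.1 CPM with si025 and 149.97, 156 and 149 CPM with si033. It lies on chromosome 6, 52264014 to 52284881, minus strand (hg38), and its log2 fold change of -1.37 (SE 0.05, adjusted *p* = 9.85e-17) with si025 was the lowest of the 6, against -0.46 (SE 0.04, adjusted *p* = 4.90e-09) with si033. The 3 groups did not overlap.

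The remaining subunits had smaller fold changes with si025 than *MCM3*. For *MCM7*, the control libraries gave 414, 416 and 412 CPM, the si025 libraries 204, 218 and 207 CPM and the si033 libraries 304, 304 and 296 CPM, a log2 fold change of -0.98 (SE 0.04, adjusted *p* = 3.99e-15) and -0.46 (SE 0.04, adjusted *p* = 1.81e-09), respectively. In control, *MCM4* stood at 544, 559 and 560.1 CPM, against 293, 284 and 289 CPM with si025 and 484, 504 and 494 CPM with si033, so that *MCM4* fell by 47.9% with si025, while with si033 the log2 fold change was -0.17 (SE 0.04, adjusted *p* = 0.000867). Levels of *MCM5* were 105, 108 and 102 CPM in control, 59.6, 58.1 and 62.4 CPM with si025 and 95.2, 94.00 and 92.1 CPM with si033. Its pattern was like that of *MCM4*, with -0.80 (SE 0.05, adjusted *p* = 2.16e-12) and -0.16 (SE 0.05, adjusted *p* = 0.00578). *MCM2* was measured at 216, 221 and 211 CPM in the control libraries, 146, 152 and 139.98 CPM with si025 and 171, 163 and 166 CPM with si033, with log2 fold changes of -0.56 and -0.37. For *MCM6*, the control libraries gave 167, 179.6 and 181 CPM, the si025 libraries 102, 108 and 109 CPM and the si033 libraries 113, 121 and 118 CPM. *MCM6* had the largest decrease of the 6 with si033, -0.59 (SE 0.05, adjusted *p* = 4.29e-10), beside -0.72 (SE 0.05, adjusted *p* = 8.53e-12) with si025. The difference between the siRNAs for *MCM6* was -0.13 (SE 0.05, adjusted *p* = 0.0202) and lost its call without si025 replicate 1 (adjusted *p* = 0.0823), si033 replicate 2 (0.0699) or si033 replicate 3 (0.0626).

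**Figure D2:**
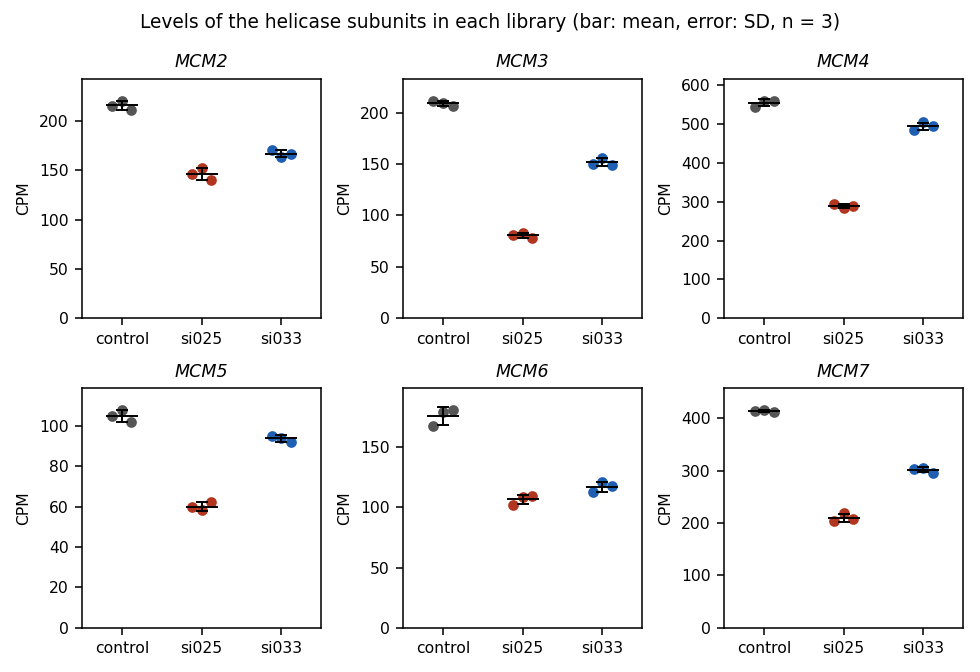
Level of each MCM2-7 subunit gene in CPM (y axis, from 0) in each library of the control, si025 and si033 groups; points are libraries, horizontal bars are means and error bars are SD of 3 libraries. For every subunit the si025 points lie lowest, and the si033 points lie between those of si025 and control.

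Since the subunits share a complex in equal number, their transcripts were also compared per kb. In control the levels per kb ran from 32.4 for *MCM5* to 113 for *MCM7*, with *MCM4* at 113, *MCM3* at 65.2, *MCM2* at 61.6 and *MCM6* at 46.5 CPM per kb. *MCM3* made up 14.9% to 15.4% of the 6-gene sum per kb in the control libraries, 10.7% to 11.1% with si025 and 13.9% to 14.2% with si033. *MCM2* made up 14.0% to 14.4% in control and 17.5% to 18.6% with si025, while with si033 it made up 13.6% to 14.5%. The share of *MCM4* was 25.8% to 26.4% in control, 24.8% to 26.2% with si025 and 29.3% to 30.0% with si033. *MCM6* lay at 10.3% to 11.1% in control, above this with si025 (11.9% to 12.7%) and below it with si033 (8.85% to 9.35%). These shares do not depend on the scaling of the libraries, but no test was made of them, since 3 libraries against 3 cannot give an exact permutation *p* value below 0.10.

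**Figure D3:**
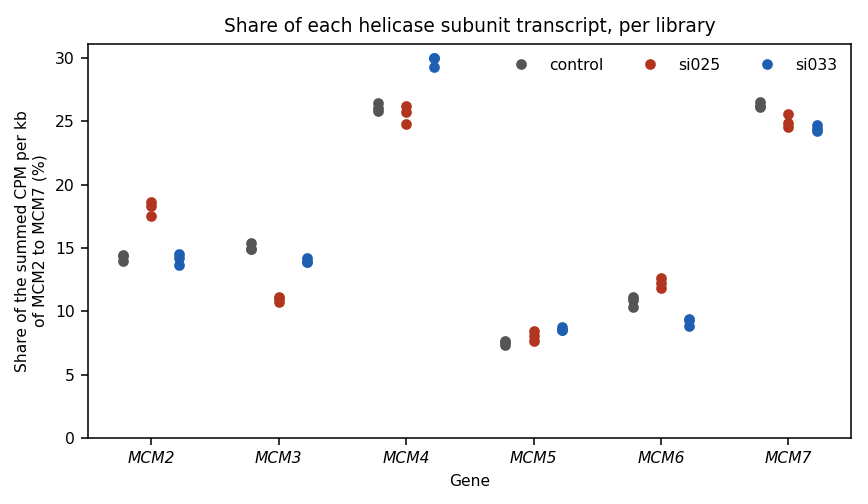
Share of each subunit gene in the summed CPM per kb of MCM2 to MCM7, in percent (y axis, from 0), for each library of the control (grey), si025 (red) and si033 (blue) groups. MCM3 has its lowest share and MCM2 its highest with si025, whereas MCM4 has its highest share, 29.3% to 30.0%, with si033.

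The licensing factors that load the helicase were lower with si025 for all 3 genes and with si033 for 2. In control, *CDC6* stood at 150.1, 150.4 and 148 CPM, against 70.9, 73.2 and 69.5 CPM with si025 and 88.3, 92.5 and 90.01 CPM with si033. *CDC6*, an ATPase that recruits the helicase to ORC (chromosome 17, 40287689 to 40303161, plus strand), fell by 52.3% under si025 (-1.07, SE 0.05, adjusted *p* = 5.21e-15). Its decrease with si033, -0.73 (SE 0.05, adjusted *p* = 4.27e-12), was the largest of the 53 genes in that comparison. Levels of *CDT1* were 17.5, 23.3 and 20.5 CPM in control, 12.8, 11.8 and 11.4 CPM with si025 and 20.2, 18.1 and 17.7 CPM with si033. *CDT1*, which carries the helicase to the origin, was lower with si025 (-0.79, SE 0.09, adjusted *p* = 1.21e-07), whereas with si033 the libraries overlapped control and the value of -0.15 (SE 0.09, adjusted *p* = 0.14) was not called. Without control replicate 1 that value became -0.22 and was called (adjusted *p* = 0.0384). *GMNN* was measured at 101, 101 and 105 CPM in the control libraries, 56.3, 63.6 and 62.96 CPM with si025 and 74.2, 71.5 and 70.5 CPM with si033. *GMNN* encodes geminin, the inhibitor of CDT1, and was also lower with both (-0.75, SE 0.05, adjusted *p* = 2.22e-11 and -0.52, SE 0.05, adjusted *p* = 1.53e-08). The ratio of *CDT1* to *GMNN* per kb was 0.269 to 0.358 in control, 0.281 to 0.355 with si025 and 0.390 to 0.423 with si033, so that the si033 libraries alone lay above control.

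Subunits of ORC, the complex that marks origins, differed among themselves. For *ORC1*, the control libraries gave 29.1, 31.97 and 31.8 CPM, the si025 libraries 15.8, 15.4 and 15.3 CPM and the si033 libraries 28.6, 28.5 and 26.2 CPM. *ORC1*, the ATPase subunit whose protein is known to be degraded in S phase (chromosome 1, 52371408 to 52404471, minus strand), fell by 50.2% with si025 (-1.01, SE 0.07, adjusted *p* = 1.58e-11). With si033 it was -0.18 (SE 0.06, adjusted *p* = 0.0224), a call lost without si033 replicate 3 (adjusted *p* = 0.176), control replicate 2 (0.0853) or control replicate 3 (0.113), with upper quartile normalization (0.0548) and with DESeq2 (0.0743). *ORC6* was the next lowest subunit with si025, with -0.67 (SE 0.06, adjusted *p* = 1.48e-09) against -0.27 (SE 0.06, adjusted *p* = 0.000375) with si033.

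The core subunits ORC2 to ORC5, which ORC1 joins, had smaller fold changes with si025 than *ORC1* and *ORC6*. In control, *ORC4* stood at 79.4, 78.1 and 78.03 CPM, against 78.9, 83.1 and 83.9 CPM with si025 and 75.1, 85.1 and 78.9 CPM with si033. The libraries of all groups overlapped, and *ORC4* was called with neither siRNA (0.07, SE 0.05, adjusted *p* = 0.275 and 0.02, SE 0.05, adjusted *p* = 0.738). Levels of *ORC5* were 72.98, 78.6 and 81.7 CPM in control, 61.8, 63.02 and 58.2 CPM with si025 and 55.5, 63.8 and 55.5 CPM with si033, log2 fold changes of -0.36 (SE 0.06, adjusted *p* = 1.70e-05) and -0.43 (SE 0.06, adjusted *p* = 2.48e-06), and it was the ORC gene lowered most by si033. *ORC3* was measured at 51.8, 51.7 and 56.5 CPM in the control libraries, 41.7, 41.3 and 41.6 CPM with si025 and 59.8, 60.1 and 56.5 CPM with si033. *ORC3* was lower with si025 (-0.37, SE 0.06, adjusted *p* = 5.00e-06), while its value with si033 was 0.13 (SE 0.05, adjusted *p* = 0.0526). That value was called higher without si033 replicate 3 (0.16, adjusted *p* = 0.0405), without control replicate 3 (0.18, 0.0171), with upper quartile normalization (0.0175) and with a filter at 1 CPM (0.0484). *ORC2* was lower with both (-0.29 and -0.16), although the call with si033 was lost without control replicate 3 (adjusted *p* = 0.0744). Per kb, *ORC1* was the scarcest ORC transcript in control at 6.57 CPM per kb, against 10.96 for *ORC4* and 22.4 for *ORC6*.

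All 8 genes that turn the loaded ring into an active helicase were called lower with both siRNAs. For *CDC45*, the control libraries gave 119, 124 and 118 CPM, the si025 libraries 43.5, 50.96 and 47.7 CPM and the si033 libraries 100.04, 102 and 97.4 CPM. *CDC45*, which joins MCM2-7 and GINS in the active helicase (chromosome 22, 19479278 to 19520612, plus strand), fell by 60.3% with si025 (-1.33, SE 0.05, adjusted *p* = 2.40e-15) and fell by 16.98% with si033 (-0.27, SE 0.05, adjusted *p* = 0.000115). In control, *GINS2* stood at 17.4, 17.6 and 17.9 CPM, against 7.24, 9.03 and 8.14 CPM with si025 and 11.8, 11.5 and 10.9 CPM with si033, and it was the gene of this group lowered most by si033 (-1.10, SE 0.09, adjusted *p* = 3.33e-10 with si025 and -0.64, SE 0.09, adjusted *p* = 1.53e-06 with si033). Levels of *GINS1* were 82.6, 89.2 and 87.1 CPM in control, 50.9, 47.4 and 49.8 CPM with si025 and 75.2, 80.8 and 76.7 CPM with si033. With si025 the log2 fold change of *GINS1* was -0.81 (SE 0.05, adjusted *p* = 6.45e-12), beside -0.87 for *GINS3* and -0.81 for *GINS4*. With si033 its value was -0.16 (SE 0.05, adjusted *p* = 0.012), and the call was lost without si033 replicate 3 (adjusted *p* = 0.0542), control replicate 2 (0.0705) or control replicate 3 (0.0524). *MCM10*, needed for the helicase to start moving, was -1.08 and -0.40.

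The genes of the kinase pair that triggers firing differed in their pattern. *CDC7*, the catalytic subunit, was 94.4 ± 4.96 CPM in control, 61.6 ± 2.23 CPM with si025 and 71.5 ± 1.55 CPM with si033, log2 fold changes of -0.62 and -0.40. *DBF4* was measured at 80.05, 82.1 and 93.4 CPM in the control libraries, 73.04, 71.4 and 76.6 CPM with si025 and 62.3, 63.5 and 62.4 CPM with si033. *DBF4*, its activating subunit, fell less with si025 (-0.22, SE 0.06, adjusted *p* = 0.00185) than with si033 (-0.45, SE 0.06, adjusted *p* = 6.12e-07). It was the only one of the 53 genes that was called higher with si025 than with si033 (0.23, SE 0.06, adjusted *p* = 0.00131). The ratio of *DBF4* to *CDC7* per kb was 0.776 to 0.836 in control, 1.01 to 1.11 with si025 and 0.764 to 0.812 with si033. Pseudogenes of *DBF4* are annotated, so its counts are less certain.

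The genes of polymerase alpha and primase, which lay down the first primer of each strand, were all called lower with both siRNAs. For *POLA2*, the control libraries gave 178, 194 and 183 CPM, the si025 libraries 107, 107 and 108 CPM and the si033 libraries 122, 111 and 119.5 CPM. *POLA2*, the accessory subunit, had log2 fold changes of -0.78 (SE 0.05, adjusted *p* = 2.16e-12) and -0.65 (SE 0.05, adjusted *p* = 7.45e-11), and the difference between the siRNAs of -0.13 (SE 0.05, adjusted *p* = 0.0224) was lost without si025 replicate 3 (adjusted *p* = 0.0547), si033 replicate 1 (0.0564) or si033 replicate 3 (0.0871). In control, *POLA1* stood at 80.05, 77.9 and 85.2 CPM, against 60.5, 55.4 and 62.2 CPM with si025 and 67.98, 67.6 and 70.9 CPM with si033. *POLA1*, the catalytic subunit, changed least of the 4 with si025, at -0.45 (SE 0.05, adjusted *p* = 1.94e-07), and had -0.24 (SE 0.05, adjusted *p* = 0.000833) with si033. Levels of *PRIM2* were 22.7, 22.2 and 26.2 CPM in control, 16.4, 16.1 and 15.3 CPM with si025 and 20.5, 21.4 and 20.7 CPM with si033. *PRIM2*, the large primase subunit, was called lower with si033 (-0.20, SE 0.07, adjusted *p* = 0.0226), a call lost without control replicate 3 (-0.10, adjusted *p* = 0.322), si033 replicate 1 (0.0549) or si033 replicate 3 (0.0768) and with DESeq2 (0.0736). *PRIM1*, the catalytic primase subunit, was -0.69 with si025 and -0.52 with si033. Its difference between the siRNAs of -0.16 (SE 0.06, adjusted *p* = 0.0228) was lost without si025 replicate 3 (adjusted *p* = 0.0959), si033 replicate 2 (0.0931) or si033 replicate 3 (0.0702).

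Of the 6 genes of the extending polymerases, 5 were called lower with si025 and 3 with si033. *POLD2* was measured at 303, 336 and 308 CPM in the control libraries, 292, 315 and 299 CPM with si025 and 371, 361 and 356 CPM with si033. *POLD2*, the subunit that bridges polymerase delta (chromosome 7, 44114680 to 44123668, minus strand), was the exception, as it was not called with si025 (-0.06, SE 0.05, adjusted *p* = 0.246) and was higher with si033 in every library (0.20, SE 0.05, adjusted *p* = 0.000689). *POLD1*, the catalytic subunit, was lower with both (-0.54 and -0.32), as was the accessory subunit *POLD3* (-0.71 and -0.40). The ratio of *POLD3* to *POLD2* per kb was thus 0.0999 to 0.116 in control, 0.0626 to 0.0736 with si025 and 0.0684 to 0.0756 with si033. Polymerase epsilon is the leading-strand enzyme. For *POLE2*, the control libraries gave 17.1, 19.6 and 20.7 CPM, the si025 libraries 11.7, 11.2 and 12.03 CPM and the si033 libraries 17.3, 18.1 and 17.3 CPM. *POLE2* was called lower with si025 (-0.74, SE 0.08, adjusted *p* = 5.43e-08) but not with si033 (-0.15, SE 0.08, adjusted *p* = 0.119), where it was called without control replicate 1 (-0.20, adjusted *p* = 0.0404). The catalytic subunit *POLE* had the same calls (-0.32, SE 0.05, adjusted *p* = 7.34e-06 and -0.10, SE 0.05, adjusted *p* = 0.113). In control, *POLE3* stood at 204, 214 and 209 CPM, against 141, 148 and 149 CPM with si025 and 157, 159 and 151 CPM with si033. *POLE3*, a histone-fold subunit, was lowered by both (-0.52, SE 0.04, adjusted *p* = 6.24e-10 and -0.43, SE 0.04, adjusted *p* = 2.41e-08).

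*PCNA*, the sliding clamp that tethers the polymerases, was the most abundant of the 53 transcripts per kb, at 299.6 CPM per kb in control, where the median gene had 22.2 and *PRIM2* the least, 3.32. Levels of *PCNA* were 421, 424 and 451 CPM in control, 228, 253 and 244 CPM with si025 and 292, 311 and 288 CPM with si033. It fell by 44.1% with si025 (-0.84, SE 0.05, adjusted *p* = 4.97e-13) and fell by 31.4% with si033 (-0.54, SE 0.05, adjusted *p* = 1.11e-09), and the 3 groups did not overlap. Of the 5 RFC genes, which encode the loader of that clamp, all were called lower with si025 and 3 with si033. *RFC5* was measured at 84.4, 90.97 and 90.7 CPM in the control libraries, 52.2, 50.02 and 52.1 CPM with si025 and 59.3, 58.95 and 62.9 CPM with si033, the largest decreases among them (-0.79 and -0.55). For *RFC4*, the control libraries gave 55.1, 54.9 and 62.5 CPM, the si025 libraries 36.4, 39.9 and 36.3 CPM and the si033 libraries 59.8, 60.3 and 58.3 CPM. Thus *RFC4* was lower with si025 (-0.62, SE 0.06, adjusted *p* = 7.07e-09), while with si033 its value was 0.03 (SE 0.06, adjusted *p* = 0.646) and the libraries overlapped control. In control, *RFC1* stood at 148, 151 and 154 CPM, against 119, 110.2 and 110.05 CPM with si025 and 132, 133 and 130.4 CPM with si033, and this large subunit changed least of the loader genes with si025 (-0.42, SE 0.05, adjusted *p* = 3.38e-08). *RFC2* (-0.49 and -0.09) was not called with si033 (adjusted *p* = 0.128), whereas *RFC3* (-0.62 and -0.25) and *DSCC1*, a subunit of an alternative loader (-0.50 and -0.19), were called with both. Annotated pseudogenes make the counts of *PCNA*, *RFC3* and *RFC5* less certain.

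RPA, the trimer that coats single-stranded DNA at the fork, was the group in which no gene was called lower with si033. Levels of *RPA1* were 200.4, 191 and 198 CPM in control, 188, 190.2 and 189 CPM with si025 and 235, 241 and 229 CPM with si033. *RPA1*, the large subunit that binds DNA (chromosome 17, 1829979 to 1899554, plus strand), was called higher with si033 (0.26, SE 0.04, adjusted *p* = 1.69e-05) and was not called with si025 (-0.06, SE 0.04, adjusted *p* = 0.252). *RPA2* was measured at 64.9, 70.7 and 67.9 CPM in the control libraries, 52.9, 52.9 and 54.6 CPM with si025 and 70.1, 70.4 and 65.02 CPM with si033. *RPA2* was lower with si025 (-0.34, SE 0.05, adjusted *p* = 7.34e-06), and with si033 it had 0.01 (SE 0.05, adjusted *p* = 0.931), with overlapping libraries. For *RPA3*, the control libraries gave 30.3, 28.2 and 31.7 CPM, the si025 libraries 15.6, 21.3 and 19.01 CPM and the si033 libraries 29.3, 33.1 and 31.1 CPM. *RPA3*, the small subunit, was lower with si025 (-0.68, SE 0.08, adjusted *p* = 2.71e-07) and had 0.04 (SE 0.08, adjusted *p* = 0.663) with si033. Pseudogenes of *RPA2* and *RPA3* are annotated. The summed level of the 3 genes was 294 ± 4.01 CPM in control, 261 ± 4.34 CPM with si025 and 335 ± 9.79 CPM with si033.

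**Figure D4:**
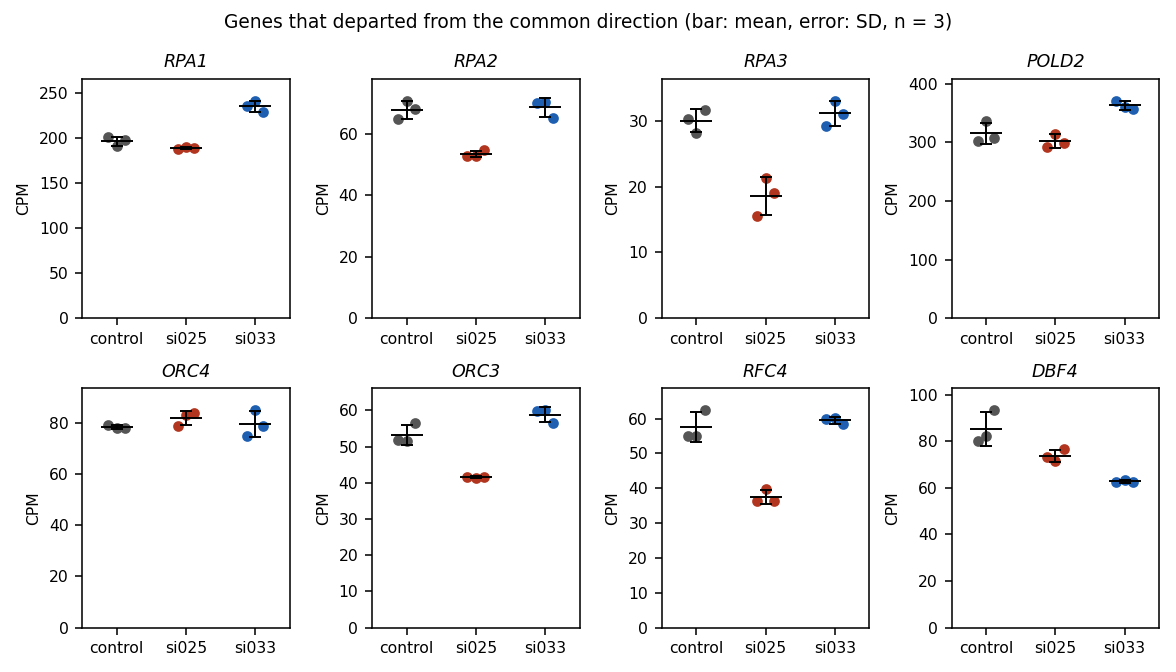
Level in CPM (y axis, from 0) of 8 genes that departed from the pattern of the rest, picked after their values were seen, in each library of the control, si025 and si033 groups; points are libraries, horizontal bars are means and error bars are SD of 3 libraries. RPA1 and POLD2 lie above control with si033, and ORC4 overlaps in all groups. DBF4, called lower with both siRNAs, is lowest with si033 rather than si025.

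Both genes that finish the lagging strand were called lower with both siRNAs. In control, *FEN1* stood at 106, 107 and 109 CPM, against 49.1, 55.5 and 49.2 CPM with si025 and 81.1, 81.1 and 76.8 CPM with si033. *FEN1*, the nuclease that trims the flap of each Okazaki fragment, fell by 52.2% with si025 (-1.07, SE 0.05, adjusted *p* = 9.39e-14) and had -0.44 (SE 0.05, adjusted *p* = 2.23e-07) with si033. Levels of *LIG1* were 91.2, 91.4 and 90.00 CPM in control, 52.7, 58.9 and 53.6 CPM with si025 and 74.99, 71.3 and 77.9 CPM with si033. *LIG1*, the ligase that seals the nick, followed with -0.72 (SE 0.05, adjusted *p* = 6.96e-11) and -0.28 (SE 0.05, adjusted *p* = 0.000113).

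The genes that steady the fork were also all called lower with both. *WDHD1* was measured at 66.6, 64.3 and 68.99 CPM in the control libraries, 21.2, 19.7 and 19.9 CPM with si025 and 50.5, 53.1 and 52.3 CPM with si033. *WDHD1*, which couples the helicase to polymerase alpha (chromosome 14, 54938938 to 55027105, minus strand), fell by 69.8% with si025, the largest decrease of the 53 genes (-1.73, SE 0.06, adjusted *p* = 1.50e-16). With si033 it fell by 22.1% (-0.36, SE 0.05, adjusted *p* = 4.07e-06). For *CLSPN*, the control libraries gave 62.8, 62.9 and 59.6 CPM, the si025 libraries 40.1, 30.96 and 33.3 CPM and the si033 libraries 40.3, 39.5 and 43.2 CPM. *CLSPN*, the claspin adaptor of the checkpoint kinase CHK1, was the gene of this group lowered most by si033 (-0.58, SE 0.07, adjusted *p* = 2.64e-07, against -0.84, SE 0.07, adjusted *p* = 4.79e-10 with si025). In control, *TIMELESS* stood at 226, 225 and 226 CPM, against 149.8, 145 and 149 CPM with si025 and 179.97, 178 and 185 CPM with si033. Levels of *TIPIN* were 20.6, 24.5 and 22.4 CPM in control, 14.95, 13.9 and 16.8 CPM with si025 and 13.8, 16.9 and 15.7 CPM with si033. *TIMELESS* and *TIPIN* encode partners in 1 complex. *TIMELESS* was lowered more by si025 (-0.61, SE 0.04, adjusted *p* = 1.60e-11) than by si033 (-0.32, SE 0.04, adjusted *p* = 9.30e-07), a difference of -0.29 (SE 0.04, adjusted *p* = 2.30e-06), while for *TIPIN* the log2 fold changes were -0.56 (SE 0.09, adjusted *p* = 6.48e-06) and -0.54 (SE 0.09, adjusted *p* = 1.60e-05).

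Chromatin is rebuilt behind the fork by CAF-1, which deposits histones, and by UHRF1, which brings the maintenance methyltransferase to new DNA. *UHRF1* was measured at 57.8, 52.05 and 59.6 CPM in the control libraries, 26.9, 28.6 and 25.4 CPM with si025 and 40.05, 38.7 and 38.9 CPM with si033, log2 fold changes of -1.07 (SE 0.06, adjusted *p* = 1.30e-12) and -0.53 (SE 0.06, adjusted *p* = 1.22e-07). For *CHAF1A*, the control libraries gave 76.5, 73.5 and 69.8 CPM, the si025 libraries 42.3, 39.3 and 42.4 CPM and the si033 libraries 63.9, 60.2 and 56.4 CPM. In control, *CHAF1B* stood at 122, 119 and 122 CPM, against 76.5, 75.3 and 77.3 CPM with si025 and 79.8, 80.8 and 83.2 CPM with si033. The large CAF-1 subunit gene *CHAF1A* fell more with si025 (-0.82, SE 0.06, adjusted *p* = 3.69e-11) than with si033 (-0.29, SE 0.06, adjusted *p* = 0.000192), and for *CHAF1B* the values were -0.67 (SE 0.05, adjusted *p* = 1.49e-11) and -0.57 (SE 0.05, adjusted *p* = 2.88e-10). Levels of *MCM8* were 125, 123 and 124 CPM in control, 82.2, 80.1 and 85.95 CPM with si025 and 93.5, 85.7 and 93.8 CPM with si033. *MCM8*, which acts in recombination rather than licensing, was called lower with both as well (-0.58, SE 0.05, adjusted *p* = 5.60e-10 and -0.44, SE 0.05, adjusted *p* = 7.64e-08).

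The siRNAs were also compared directly, by testing si025 against si033 in the fit of all 9 libraries. Of the 53 genes, 47 were called lower with si025, where 29.7% of all genes were, and 1 was called higher, where 31.2% were. For 47 genes all si025 libraries lay below all si033 libraries, where this held for 30.4% of all genes. The median difference was -0.34, and 2 genes were called lower by at least 2-fold with si025, where 2.14% of all genes were. These were *WDHD1* (-1.37, SE 0.06, adjusted *p* = 4.14e-15) and *CDC45* (-1.07, SE 0.05, adjusted *p* = 7.22e-14). Next came *MCM3* (-0.91, SE 0.05, adjusted *p* = 4.59e-14), *ORC1* (-0.83, SE 0.07, adjusted *p* = 5.25e-10) and *MCM4* (-0.78, SE 0.04, adjusted *p* = 5.53e-14). The *RPA3* difference, -0.72 (SE 0.08, adjusted *p* = 9.30e-08), followed these.

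Not called were *ORC4* (0.04, SE 0.05, adjusted *p* = 0.48), *ORC5* (0.07, SE 0.06, adjusted *p* = 0.328), *TIPIN* (-0.02, SE 0.09, adjusted *p* = 0.856), *POLE3* (-0.09, SE 0.04, adjusted *p* = 0.0802) and *CHAF1B* (-0.09, SE 0.05, adjusted *p* = 0.0876). For *POLE3* and *CHAF1B* the si025 libraries all lay below the si033 libraries nonetheless. Among the called genes, *MCM8* and *CLSPN* had overlapping libraries. The *MCM8* difference of -0.14 (SE 0.05, adjusted *p* = 0.0192) was lost without si025 replicate 2 (adjusted *p* = 0.0685) or si033 replicate 3 (0.107), and that of *ORC2*, -0.13 (SE 0.05, adjusted *p* = 0.0227), without si025 replicate 1 (0.0549) or si033 replicate 3 (0.0894).

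**Figure D5:**
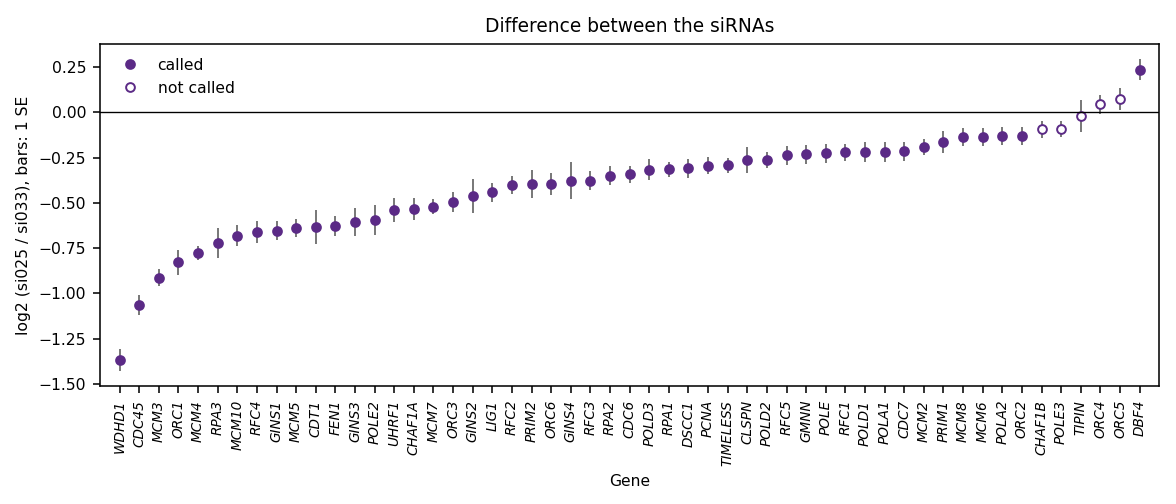
Difference between the siRNAs for each of the 53 genes, as log2 of si025 over si033 (y axis), ordered from lowest to highest; points are differences from 3 libraries per group, bars are 1 SE and open points were not called. The order runs from -1.37 for WDHD1 to 0.23 for DBF4, the only called gene above 0.

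The size of the change was also set against the level and length of each gene, as a description over the 53 genes, which share the same libraries and are not replicates. Spearman's rho between control level per kb and log2 fold change was 0.0159 with si025 and -0.0921 with si033. For exon length rho was 0.117 and -0.0102.

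A further 33 replication genes outside the list, among them firing factors, alternative clamp loaders and histone chaperones, were then read from the same test. They too were chosen with earlier results of these data known and come from the same libraries, so they are not an independent check. With si025, 24 were called lower and 1 higher, where 28.8% of all tested genes were called lower and 32.9% higher. With si033, 20 were called lower and 2 higher, where 27.8% of all genes were called lower and 26.9% higher. The median log2 fold change of the 33 genes was -0.45 with si025 and -0.21 with si033. With si025 the lowest were *TICRR*, a firing factor (-1.39, SE 0.06, adjusted *p* = 5.87e-15), *ASF1B*, a histone chaperone (-1.02, SE 0.06, adjusted *p* = 2.46e-12), and *DNA2*, a nuclease-helicase (-1.01, SE 0.06, adjusted *p* = 4.08e-13). With si033 they were *MTBP*, the partner of TICRR (-0.62, SE 0.07, adjusted *p* = 3.06e-08), *ATAD5*, which unloads PCNA (-0.59, SE 0.06, adjusted *p* = 6.96e-09), and *RIF1*, which controls the timing of origin firing (-0.56, SE 0.05, adjusted *p* = 4.92e-09). Between the siRNAs, 23 were called lower with si025 and 1 higher, where 29.7% of all genes were called lower and 31.2% higher. *TICRR* (-0.82), *DNA2* (-0.62) and *TONSL*, a fork repair factor (-0.60), differed most. *MTBP* was the gene called higher with si025 (0.21, SE 0.07, adjusted *p* = 0.00977), a call lost without si025 replicate 1, which left 0 such genes.

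*POLD4* was called higher with both siRNAs and was the only one of these genes to be so. *POLD4* was measured at 15.4, 16.02 and 18.6 CPM in the control libraries, 31.9, 34.5 and 31.7 CPM with si025 and 31.8, 31.3 and 32.2 CPM with si033. The gene encodes the smallest subunit of polymerase delta, and its log2 fold changes were 0.95 (SE 0.07, adjusted *p* = 1.03e-10) and 0.91 (SE 0.07, adjusted *p* = 3.86e-10), with every siRNA library above every control library. Among the polymerase delta genes *POLD1* and *POLD3* were lower, *POLD2* was called only with si033, as higher, and *POLD4* was higher. *CHTF8*, a subunit of the alternative loader that holds DSCC1, was the other gene called higher with si033 (0.17, SE 0.04, adjusted *p* = 0.00244) and was picked after its value was seen. With si025 it was not called (-0.03, SE 0.04, adjusted *p* = 0.563).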

How the data were processed

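RNA-seq libraries were made by the authors from total RNA of VCaP cells with a stranded total RNA kit, starting from 1.3 µg. Per the file headers, the deposited values are raw counts of read pairs over exons per gene from featureCounts 1.5.2, counted on the reverse strand with a RefSeq annotation of hg38, while the methods of the study name GENCODE. The submitters' processing notes also name HISAT2 2.1.0. Reads that map equally to a gene and its pseudogene may be lost or split by such counting. GENCODE annotates pseudogenes named after 10 of the 53 genes, *DBF4*, *FEN1*, *ORC1*, *PCNA*, *POLD2*, *RFC3*, *RFC5*, *RPA2*, *RPA3* and *TIPIN*. Only names made of the gene symbol, P and a number were searched, so copies named otherwise were missed.

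Counts of all 9 libraries were fitted together in edgeR 4.0.16 (R 4.3.3) after filterByExpr and TMM scaling, with 3 group means and 6 residual degrees of freedom, and 3 comparisons were tested with glmQLFTest. SEs were derived from the log2 fold change and its F statistic. The biological coefficient of variation was 4.13%. No 2 libraries of a group agreed within sampling noise. The 53 genes and all lists were chosen with earlier results of these data known. Library values are given for MCM2 to MCM7, for the genes with the lowest and highest log2 fold change against control in each role group, and for genes called higher by either siRNA. Of the further replication genes, those called higher by both siRNAs and the 3 with the lowest log2 fold change in each comparison are named. Alternatives were RLE and upper quartile scaling, DESeq2 1.42.0, limma-voom 3.58.1, other filters, a replicate block, a fit of 2 groups only, and leaving out each library. The pipeline was tested on simulated data. One planned luminal marker is not reported here. A planned search for a PCNA-binding protein pattern was not made, as no protein sequences were used here.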

Additional observations from a re-analysis of the deposited data

Results flagged for a closer look

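Of the 53 genes, 48 had different levels under the 2 siRNAs in the direct edgeR test, and each of these is listed here for that reason. Lower with si025 were 47 and higher was 1, where 29.7% of all tested genes were called lower and 31.2% higher. The values are log2 of si025 over si033, so that a negative value means a lower level with si025. Groups of 3 libraries are too small for a test of single outlying libraries, and none was made. Among the ORC genes, *ORC1* differed by -0.83, *ORC2* by -0.13, *ORC3* by -0.50 and *ORC6* by -0.39. Among the licensing factors, *CDC6* differed by -0.34, *CDT1* by -0.63 and *GMNN* by -0.23. Of the helicase subunits, *MCM2* differed by -0.19, *MCM3* by -0.91, *MCM4* by -0.78, *MCM5* by -0.64, *MCM6* by -0.13 and *MCM7* by -0.52. For the genes that activate the helicase, *CDC45* differed by -1.07, *GINS1* by -0.65, *GINS2* by -0.46, *GINS3* by -0.61, *GINS4* by -0.38, *CDC7* by -0.22, *DBF4* by 0.23 and *MCM10* by -0.68. The recombination factor *MCM8* differed by -0.14. In primase and polymerase alpha, *POLA1* differed by -0.22, *POLA2* by -0.13, *PRIM1* by -0.16 and *PRIM2* by -0.40. Among polymerases delta and epsilon, *POLD1* differed by -0.22, *POLD2* by -0.26, *POLD3* by -0.32, *POLE* by -0.23 and *POLE2* by -0.59. For the clamp and its loaders, *PCNA* differed by -0.29, *RFC1* by -0.22, *RFC2* by -0.40, *RFC3* by -0.38, *RFC4* by -0.66, *RFC5* by -0.24 and *DSCC1* by -0.31. In RPA, *RPA1* differed by -0.31, *RPA2* by -0.35 and *RPA3* by -0.72. In Okazaki fragment maturation, *FEN1* differed by -0.63 and *LIG1* by -0.44. Among the fork protection genes, *TIMELESS* differed by -0.29, *CLSPN* by -0.26 and *WDHD1* by -1.37. For chromatin assembly, *CHAF1A* differed by -0.53 and *UHRF1* by -0.54. *DBF4* was the exception in direction. The remaining 5 genes, *ORC4*, *ORC5*, *POLE3*, *TIPIN* and *CHAF1B*, were not called in this comparison.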

How the results depend on the processing

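With 17 alternatives, all 53 replication genes kept their call and direction for si025 against control. For si033 against control 44 did so, with 41 to 46 genes called, and for si025 against si033 46 did so, with 43 to 48 called. The genes whose calls changed are given with their values in the results above. The other changes were of sign in values near 0 that were not called. Over the libraries left out in turn, *ORC4* with si033 ran from -0.022 (without si033 replicate 2) to 0.065, and *RPA2* with si033 from -0.015 (without si033 replicate 2) to 0.050, also below 0 without si033 replicate 1 or control replicate 1. Between the siRNAs, *ORC4* ran from -0.0016 (without si033 replicate 1) to 0.087, and *TIPIN* from -0.11 to 0.049 (without si025 replicate 2), also above 0 without si033 replicate 2. The count of further replication genes called higher with si025 than with si033 was 0 to 1 when libraries were left out, against 1. The causes were not tested. With upper quartile scaling the median log2 fold change of all genes was 0.04 with si025 and 0.03 with si033. In the main fit it was 0.02 and 0.00, respectively.

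Libraries with the same replicate number did not deviate together (r = -0.02 to 0.07 over 9 pairs). This cannot show whether same-numbered libraries were handled together. In every group replicate 1 had the fewest counted read pairs and replicate 3 the most. With the replicate block the genes called numbered 50, 44 and 48 in the 3 comparisons, as without it, and over all genes 8000, 7094 and 7843, against 7908, 7015 and 7801. Depth did not limit detection here, as the lowest count of these genes in a library was 93.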

Other observations

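For several complexes not described by share above, the make-up of their transcripts is given here per kb, as values without a test. Some of these ranges overlap those of control. Of the ORC sum, *ORC1* made up 6.95% to 7.27% in control, 4.55% to 4.74% with si025 and 6.90% to 7.51% with si033. *ORC4* made up 11.3% to 12.5%, 15.5% to 16.6% and 13.0% to 13.8%, respectively. *ORC5* made up 20.5% to 21.3% in control, 20.6% to 21.97% with si025 and 17.2% to 18.5% with si033. Of the RPA sum, *RPA1* made up 46.5% to 48.8% in control, 53.7% to 55.3% with si025 and 51.3% to 51.8% with si033, and *RPA3* made up 15.1% to 16.7%, 10.1% to 13.2% and 14.1% to 15.5%. Of the GINS sum, *GINS2* made up 28.5% to 30.1% in control, 23.2% to 27.4% with si025 and 23.4% to 24.2% with si033. Of the clamp loader sum, *RFC5* made up 14.4% to 15.1% in control, 11.9% to 12.8% with si025 and 10.7% to 11.5% with si033, and *RFC4* made up 25.8% to 28.2%, 24.96% to 26.9% and 30.2% to 30.9%. The ratio of *MCM3* to *MCM2* per kb was 1.04 to 1.07 in control, 0.596 to 0.610 with si025 and 0.960 to 1.04 with si033.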
